A study of Mus musculus with 24 samples.

Results

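The Myc-by-Mlx interaction asks of each gene whether lines with and without Mlx differed in another way among fibroblasts without Myc than among fibroblasts that kept it. It was measured here in immortalized mouse embryonic fibroblasts (MEFs) as (DKO - MycKO) - (MlxKO - WT), on the scale log2(CPM + 1), and covered 12 of the 24 libraries of the series, 3 each of WT, MlxKO, MycKO and double-knockout (DKO) cells. CPM is the deposited expression value, reads of a gene relative to the size of its library. Of 41710 genes in the table, 12880 had at least 1 CPM in at least 3 libraries and were tested. All cells were grown from pools of embryos of about day E14 to E16 that carried floxed Myc, floxed Mlx or both and a Cre recombinase-estrogen receptor fusion (CreER) under the ROSA26 promoter, and each floxed line was immortalized with a lentivirus encoding SV40 T-antigen. The knockouts were then made with 500 nM 4-hydroxytamoxifen (4OHT), which activates CreER, while WT cells were kept without 4OHT, so that their floxed alleles were left intact. MEFs with intact alleles existed as 3 lines, of which a single one mostly served as control, and the line behind each WT library is not given in the sources used here. The study describes most of the immortalized MycKO cells as tetraploid or pseudo-tetraploid. Each knockout was grown as a line of its own, and WT as 1 or more lines, so that an interaction of the alleles and a difference between lines cannot be told apart. An effect of 4OHT itself, which all knockouts received and WT cells did not, cannot be told apart from it either. P-values measure only the spread between the 3 libraries of each genotype.

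Myc is a basic helix-loop-helix leucine zipper transcription factor that pairs with Max and binds E-box sequences at genes of ribosome production, metabolism and the cell cycle. The Mxd proteins and Mnt compete with Myc for Max and repress. Mlx is the Max-like partner of the glucose sensors MondoA (Mlxip) and ChREBP (Mlxipl), with which it binds carbohydrate response elements, a pair of E-boxes, at genes such as Txnip and Arrdc4, and it also pairs with some of the repressive Mxd proteins. The networks therefore meet at shared partners and shared binding sequences. If the losses acted independently on the log scale and nothing else differed between the groups, the interaction would be 0. A positive value means that DKO cells held more of an RNA than the single losses add up to, and a negative value that they held less.

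Myc RNA stood at 48.1, 39.9 and 177 CPM in the WT, 72.4, 82.8 and 79.5 in the MlxKO, 17.2, 11 and 9.96 in the MycKO and 8.02, 5.77 and 4.25 in the DKO libraries, and totals per gene do not show which part of the gene the remaining reads cover. Mlx stood at 25.1, 23.5 and 20.5 CPM in the WT, 17, 12.4 and 12.1 in the MlxKO, 27.8, 25.1 and 22.4 in the MycKO and 14.5, 18 and 17.7 in the DKO libraries, so that its RNA was lower in lines without Mlx by 0.71 and 0.56 on the log2 scale in cells with and without Myc, at an adjusted p of 0.00471 and 0.0183 (by limma, adjusted by the Benjamini-Hochberg method, here and throughout). Libraries held between 17541112 and 19851300 reads, and 3 reads, the floor used for a gene near 0, amounted to 0.145 to 0.183 CPM, which takes only counting error into account. WT library 3 stood apart. On the third principal component of the 12 libraries, which held 18.3% of the variance, it lay at 68.5 against 15.1 and 3.79 for the other WT libraries, and it held 0.73 CPM of Irf7 against 61.5 and 92.9 in the other pair, and 106 CPM of the Y-linked Ddx3y against 6.56 and 4.61. Results that turn on WT are therefore also given without it. Sex-linked RNA differed between the lines, with Xist, the RNA of the inactive X chromosome, at 2114, 1574 and 549.7 CPM in the WT, 266, 254 and 238 in the MlxKO, 395, 526 and 483 in the MycKO and 1133, 1156 and 790.0 in the DKO libraries. Of 12 fibroblast markers, Col1a1, Col1a2, Vim and Fn1 were each at 2986 CPM or more in every library. The other members of that list were lower in at least some libraries. Col3a1 ranged from 575 to 3464 CPM, Fbn1 from 491 to 1181, Pdgfrb from 180 to 334 and Pdgfra from 76.2 to 565. S100a4 ranged from 38.7 to 724, Thy1 from 10.2 to 639.6, Dcn from 6.09 to 17.5 and Lum from 0.102 to 8.21 CPM. The summed level of the marker lists of other cells was 1.64 to 5.91 CPM for macrophages (1 of 12 genes tested), 3.29 to 19.5 for endothelium (2 of 8), 12.8 to 36.1 for epithelium (2 of 9) and at most 0.153 for erythroid cells (0 of 6). Some markers of macrophages (Adgre1, Tyrobp, C1qa), endothelium (Emcn, Cldn5), epithelium (Krt14, Esrp1), glia (Sox10) and muscle progenitors (Myod1, Myog, Myf5) were at 0 in all 12 libraries. Other members of the lists were not. Across libraries the epithelial Krt19 ranged from 11.1 to 33.9 CPM and Cdh1 up to 5.15. The macrophage marker Cd68 ranged from 0.824 to 5.2, the endothelial Kdr from 2.25 to 17.3 and the neural Map2 from 28 to 224 CPM.

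The interaction passed an adjusted p of 0.05 for 6108 of the 12880 genes, 47.4%, with 3047 positive (23.7%) and 3061 negative (23.8%). Without WT library 3 the number was 7299, 56.7%, and 5956 of the 6108 genes were called again with the same sign. In primary MEFs, measured with 12 further libraries, 1774 of 13101 genes passed, 13.5%. The median size of the interaction over all genes tested was 0.589 on the log2 scale in immortalized and 0.173 in primary cells. An absolute interaction of at least 1 was reached by 3186 of the called genes, of at least 2 by 845 and of at least 3 by 341. Leaving out single libraries moved the number of calls between 4956 (without DKO library 2) and 7299. Scaling by library totals in place of the deposited scaling moved the median of all genes by -0.175 and the calls to 2325 positive and 3920 negative, so that signs are relative to the deposited scaling. Counts of called members in the groups of genes described below stand beside 23.7% positive and 23.8% negative of all genes tested. Counts in primary cells stand beside 7.47% positive and 6.07% negative of the genes tested there.

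Mlx loss called 5014 genes where Myc was present (38.9% of those tested) and 3788 where Myc was lost (29.4%), and Myc loss called 6176 where Mlx was present (48%) and 3879 where Mlx was lost (30.1%). The order of the Mlx counts turned without WT library 1 (3494 and 3740), MlxKO library 2 (2884 and 3495) or MlxKO library 3 (3180 and 3376). For 1425 of the 6108 interaction genes, 23.3%, both effects of Mlx loss passed the threshold and had opposite signs, and without WT library 3 this held for 2600 of 7299. The number was 840 without DKO library 2, 883 without MlxKO library 2 and 892 without MlxKO library 3. Opposite effects make the interaction large by construction, and all 1425 tested genes with this pattern, 11.1% of those tested, were called. These calls therefore add no support. A further 2427 genes (39.7% of the called genes) were called for Mlx loss with Myc present and did not pass with Myc lost. Another 1623 (26.6%) were called only with Myc lost, 578 (9.46%) with neither effect alone, and 55 (0.9%) with both effects in the same direction. Over all genes tested these classes held 25.7%, 16.1%, 44.9% and 2.21%, a difference that was not tested. The count called only with Myc present did not stay above the count called only with Myc lost. They were 1432 and 1810 without MlxKO library 2, 1612 and 1719 without MlxKO library 3, and 1651 and 1812 without WT library 1. Of these 55, 43 had the larger effect in cells without Myc. Across genes, which are not independent, the pair of Mlx effects had a Pearson's r of -0.318, and the pair of Myc effects -0.189.

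**Figure D1:**
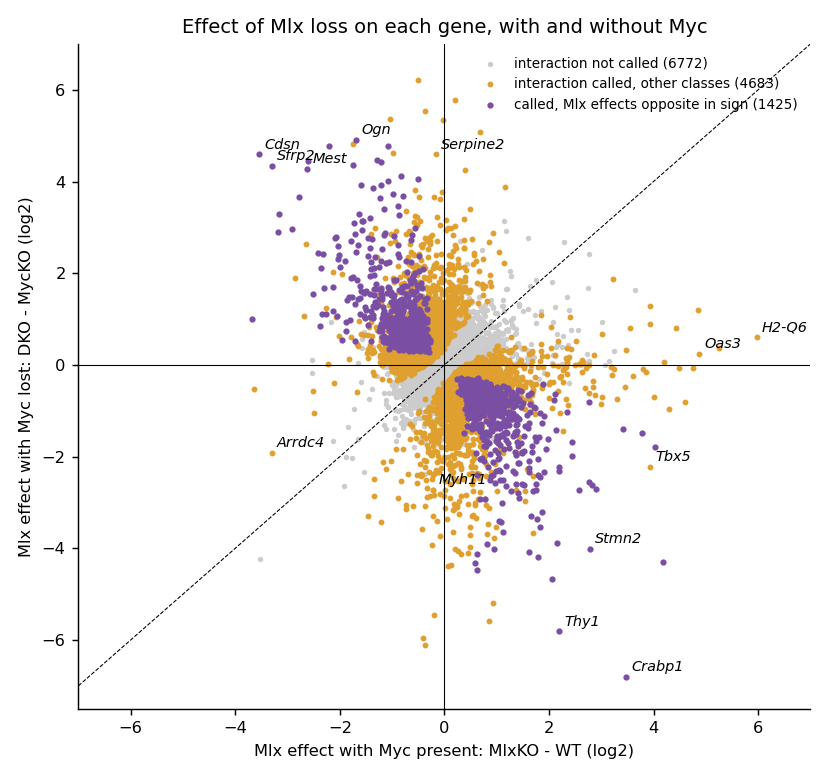
Each point is a gene, with the log2 effect of Mlx loss in cells with Myc (MlxKO - WT) on the horizontal and in cells without Myc (DKO - MycKO) on the vertical axis, and the dashed line marks equal effects. Purple marks the 1425 called genes whose effects were both called with opposite signs, which fill the upper left and lower right.

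Over all genes DKO cells lay nearer to WT cells than either single knockout did. The median absolute difference over the genes tested was 0.271 between DKO and WT (0.238 without WT library 3), against 0.369 between MlxKO and WT, 0.421 between MycKO and WT, 0.306 between MlxKO and DKO, 0.303 between MlxKO and MycKO and 0.292 between MycKO and DKO. In 620 genes (4.81% of those tested) all 6 single-knockout libraries lay above all 6 WT and DKO libraries, and in 672 genes (5.22%) they lay below. This crossed order makes the interaction large by construction, so that its calls in 617 and 672 of these genes add no support. Without WT library 3, 1055 and 1198 genes showed the crossed order, 8.19% and 9.3% of those tested. The MycKO line was the line farthest from the other 3 in 1183 of the 6108 genes, WT in 1007, MlxKO in 724 and DKO in 342, while 2852 genes had no single line apart. These were 19.4%, 16.5%, 11.9% and 5.6% of the called genes, close to the 16.4%, 15.8%, 13.6% and 7.07% of all genes tested.

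In the 6 genes with the largest positive interactions RNA was lower in both single knockouts than in WT libraries 1 and 2, and higher again in DKO cells. Cdsn (corneodesmosin, an adhesion protein of cornified epithelium; chromosome 17, 35863025 to 35868077, GRCm39 here and below) stood at 91.5, 93.4 and 42.7 CPM in the WT, 4.02, 5.86 and 5.92 in the MlxKO, 0.818, 1.81 and 1.18 in the MycKO and 54.3, 49.1 and 55.6 in the DKO libraries. Added to WT on the log2 scale, the single losses gave a level below 0 for DKO cells, and the interaction was 8.14 ± 0.38 (adjusted p = 4.61e-08), where the error is the standard error (SE), as for all interactions below. Sfrp2, a secreted modulator of Wnt signalling (chromosome 3, 83673481 to 83681623), stood at 675, 948 and 123 CPM in the WT, 52.5, 38 and 39 in the MlxKO, 27, 29.3 and 31 in the MycKO and 621, 599 and 614 in the DKO libraries, with an interaction of 7.65 ± 0.75 (adjusted p = 1.4e-05). WT library 3 lay between the other WT libraries and the single knockouts, and without it the interaction was 8.54. Il1rn, the antagonist of the interleukin 1 receptor (chromosome 2, 24226865 to 24241506), stood at 59.9, 46.1 and 87.6 CPM in the WT, 11.5, 13.7 and 12.9 in the MlxKO, 3.78, 2.64 and 2.76 in the MycKO and 95.9, 115 and 118 in the DKO libraries, and its interaction was 6.99 ± 0.29 (adjusted p = 2.24e-08). In Il1rn no line overlapped another, and the DKO libraries were the highest.

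Mest, an imprinted gene expressed in embryonic mesoderm (chromosome 6, 30723546 to 30752058), stood at 1696, 1712 and 115 CPM in the WT, 128, 101 and 107 in the MlxKO, 35.4, 34.1 and 30.8 in the MycKO and 656, 663 and 681 in the DKO libraries. Here WT library 3 sat with the MlxKO libraries, and the interaction was 6.91 ± 1.05 (adjusted p = 0.000307) with it and 8.2 without it. Ogn, the small leucine-rich matrix proteoglycan osteoglycin (chromosome 13, 49761349 to 49780412), stood at 1049.7, 811 and 571 CPM in the WT, 343, 193 and 219 in the MlxKO, 21.5, 24.5 and 27 in the MycKO and 605, 860.4 and 831 in the DKO libraries, an interaction of 6.59 ± 0.34 (adjusted p = 8.13e-08). Malrd1 (chromosome 2, 15531290 to 16260366) ranged from 6.39 to 21.7 CPM in WT, up to 1.55 in MlxKO, up to 0.338 in MycKO and from 22.8 to 25.2 in DKO libraries (interaction 7.06 ± 0.46, adjusted p = 5.23e-07). Xlr3b and Commd1b complete the 8 largest, with interactions of 6.56 and 6.46, but 53.5% and 98.3% of the 50-base stretches of their transcripts also occur in other genes, mainly Xlr3a and B3gnt2, so that their reads may be split or shared. In primary cells Cdsn had an interaction of -1.95, Mest of -1.19, Ogn of 1.34 and Il1rn of 1.1, the first pair opposite in sign and the second pair of the same sign as here (all 4 called).

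Among the genes with the largest negative interactions, Crabp1, Thy1, Stmn2 and Galnt17 had the mirror order, high in both single knockouts and low in DKO cells and in WT libraries 1 and 2. Crabp1, a cytoplasmic carrier of retinoic acid (chromosome 9, 54671171 to 54680403), stood at 0.937, 0.555 and 32.7 CPM in the WT, 40.5, 58.9 and 55 in the MlxKO, 185, 119 and 109.7 in the MycKO and 0.0569, 0.0566 and 0.607 in the DKO libraries. WT library 3 lay near the MlxKO libraries, DKO libraries 1 and 2 were below the floor of 3 reads, and the fitted interaction of -10.27 ± 1.2 (adjusted p = 4.91e-05) depends at such levels on the added 1 CPM (-11.7 without WT library 3). Thy1, a surface glycoprotein of fibroblasts and neurons (chromosome 9, 43954332 to 43959880), stood at 14.9, 21.1 and 123 CPM in the WT, 147, 171 and 164 in the MlxKO, 639.6, 633 and 635 in the MycKO and 10.3, 10.2 and 10.7 in the DKO libraries, with an interaction of -7.997 ± 0.75 (adjusted p = 1.04e-05). Stmn2, the microtubule regulator stathmin 2 of neurons (chromosome 3, 8574151 to 8626667), stood at 1.41, 1.78 and 0.243 CPM in the WT, 14.5, 11.5 and 13.1 in the MlxKO, 64.2, 50.7 and 57.5 in the MycKO and 1.82, 3.05 and 3.15 in the DKO libraries (interaction -6.79 ± 0.38, adjusted p = 1.39e-07). MycKO held the most Thy1 and Stmn2 RNA of the 4 lines, with MlxKO next, and without WT library 3 the interactions were -8.91 and -6.44.

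Galnt17, a mucin-type glycosyltransferase, Tnn, the matrix protein tenascin N, Tbx5, a T-box factor of the forelimb and heart, and Ankrd1, a mechanically responsive ankyrin repeat protein, had interactions of -6.74, -6.44, -6.14 and -6.12. Galnt17 stood at 4.57, 5.49 and 30.3 CPM in the WT, 36.5, 48.7 and 43.1 in the MlxKO, 111, 125 and 121 in the MycKO and 4.27, 3.62 and 3.26 in the DKO libraries, with WT library 3 near the MlxKO libraries. Tbx5 reached 50.4, 48.4 and 41.7 CPM in MlxKO and 4.35, 3.73 and 3.43 in MycKO libraries against at most 0.0569 in DKO, while WT library 3 held 25.6 CPM and the other WT libraries at most 0.166. Ankrd1 stood at 56.3, 63.5 and 68.7 CPM in MycKO and at most 7.36 in other libraries. Without WT library 3 the 4 interactions were -7.53, -7.33, -7.68 and -7.06. Among the neural and glial markers, 4 of 9 were tested, with negative interactions of -6.79 in Stmn2 and -2.56 in Tubb3, a positive one of 3.72 in Map2, which encodes a microtubule protein of neurons, and Sox2 not called. Without WT library 3 there were 3 negative calls and 1 positive call, so that Sox2 was called as well. The summed level of the list was 206, 197 and 112 CPM in WT, 91.1, 88.4 and 91.1 in MlxKO, 107, 107 and 117 in MycKO and 218, 232 and 217 in DKO libraries, where Map2 was the highest member in WT, MlxKO and DKO and Stmn2 in MycKO libraries. The part of such cells in these genes was not tested.

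**Figure D2:**
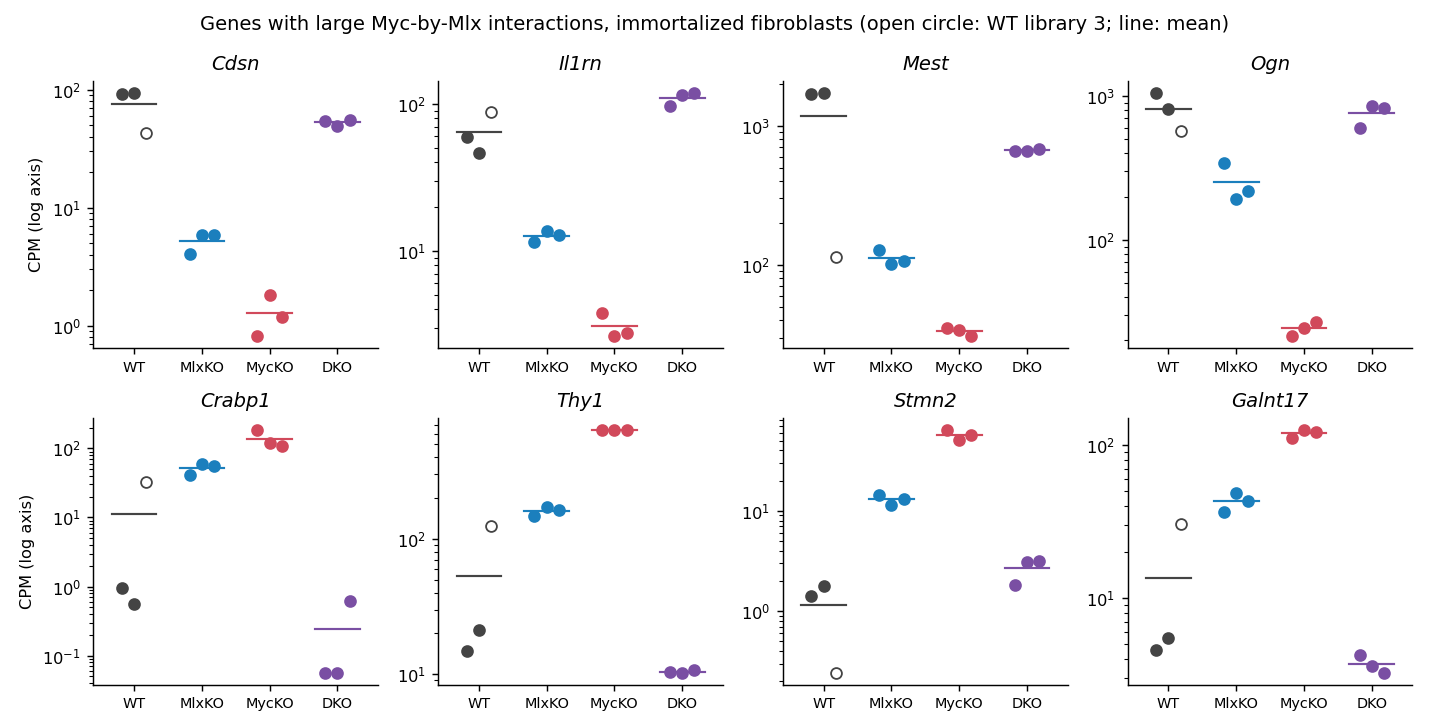
CPM on a log axis in each of the 12 libraries for 4 genes with large positive (top) and 4 with large negative interactions (bottom), with a line at the mean of each line's 3 libraries and an open circle for WT library 3. In each of the 8 genes the single knockouts lie on the same side of the DKO libraries and of WT libraries 1 and 2.

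Genes of antigen presentation by class I molecules of the major histocompatibility complex (MHC) were mostly higher after Mlx loss in cells with Myc. Of 19 genes of this list, 14 were called higher and 2 lower in MlxKO than in WT cells, against 19.1% and 19.9% of all genes tested, and 1 was called higher and 0 lower in DKO than in MycKO cells, against 14.8% and 14.6%. The interaction was called negative in 13 and positive in 2, with a median of -1.93, against 23.8% negative over all genes tested. H2-K1, a classical class I heavy chain (chromosome 17, 34214987 to 34219321), stood at 195, 198 and 60.9 CPM in the WT, 1074, 931 and 895 in the MlxKO, 552, 519 and 522 in the MycKO and 394, 361 and 382 in the DKO libraries (interaction -3.33 ± 0.47, adjusted p = 0.000185). H2-D1 stood at 183, 236 and 90.3 CPM in the WT, 1083, 1114 and 1050.4 in the MlxKO, 888, 865 and 835 in the MycKO and 637, 523 and 544 in the DKO libraries (-3.38 ± 0.36, adjusted p = 2.63e-05), and Psmb8, a subunit of the immunoproteasome, at 15.7, 18.1 and 3.59 CPM in the WT, 83.9, 93.7 and 90.1 in the MlxKO, 81.7, 56 and 57 in the MycKO and 34.7, 32.4 and 37.4 in the DKO libraries (-3.85 ± 0.56, adjusted p = 0.000239). In each of the 3 genes every knockout library lay above every WT library, and the DKO line lay between WT and MycKO. The class Ib genes H2-Q6 and H2-Q7 had interactions of -5.36 ± 0.27 (adjusted p = 6.9e-08) and -4.88 ± 0.21 (adjusted p = 2.44e-08), with up to 2.27 and 4.99 CPM in WT and at least 156 and 171 in MlxKO libraries. H2 genes resemble each other, and 30.02% of the 50-base stretches of H2-Q6, 24.6% of H2-Q7, 12.6% of H2-D1 and 11.3% of H2-K1 are found in other genes. Without WT library 3, when 28.6% of all genes were negative, the list had 14 negative calls and a median of -1.17, and in primary cells, where 7.47% of all genes were positive and 6.07% negative, 8 positive and 0 negative calls of 19.

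Interferon-stimulated genes, antiviral effectors switched on by type I interferon, were also higher after Mlx loss where Myc was present. Mlx loss raised 25 of 38 in cells with Myc and 1 in cells without, against 19.1% and 14.8% of all genes tested. The summed CPM of the list was 4066, 4416 and 421 in WT, 8486, 6865 and 7151 in MlxKO, 4062, 3752 and 3812 in MycKO and 4601, 4620.2 and 4889 in DKO libraries, so that WT library 3 was the lowest, the MlxKO libraries were the highest, and WT libraries 1 and 2 lay between the MycKO and the DKO libraries. The interaction was negative in 11 and positive in 1, against 23.8% and 23.7% of all genes tested, so that the share of negative calls was near that of all genes, and the median was -2.01. The count changed with the libraries used, and was 21 negative and 7 positive, with a median of -0.88, without WT library 3, 21 negative without WT library 2, 18 without WT library 1, and 7 without MlxKO library 1 or DKO library 2. Oas3, a synthetase of the oligoadenylate that activates RNase L (chromosome 5, 120891163 to 120915729), stood at 7.09, 4.38 and 0.0609 CPM in the WT, 114, 106 and 92.9 in the MlxKO, 2.5, 4.12 and 3.94 in the MycKO and 5.4, 4.3 and 3.37 in the DKO libraries (-4.62 ± 0.77, adjusted p = 0.000525, -3.74 without WT library 3). Zbp1, a sensor of Z-form nucleic acids, and Irf7, the transcription factor that amplifies the interferon response, had interactions of -5.27 and -4.69, and -4.38 and -2.87 without that library. The chemokine genes Ccl5 and Cxcl10 stood at 40.7, 24.9 and 26.3 and 204, 143 and 162 CPM in MlxKO and at most 4.75 and 26.2 CPM in DKO libraries, with interactions of -4.81 and -3.42. In primary cells the direction was the opposite, with 30 positive and 0 negative calls of 37. The guanylate-binding protein gene Gbp9 and the interferon gene Ifi27l2a (interactions -3.66 and -5.41) had no more than 0.304 and 6.27 CPM in WT libraries.

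Interferon-stimulated genes are known for a response element in their promoters whose core is a pair of GAAA words with any 2 bases between them, and it is shown here for Oas3 and for Isg15, the ubiquitin-like modifier, which was chosen after its values were seen. Each line gives the 250 bases before the RefSeq start, 5′ to 3′ on the gene's strand, with matches to this core on either strand in capitals (RefSeq promoter table of GRCm38.p6, placed by exact match on GRCm39).
Oas3, chr5:120915725-120915974, minus strand: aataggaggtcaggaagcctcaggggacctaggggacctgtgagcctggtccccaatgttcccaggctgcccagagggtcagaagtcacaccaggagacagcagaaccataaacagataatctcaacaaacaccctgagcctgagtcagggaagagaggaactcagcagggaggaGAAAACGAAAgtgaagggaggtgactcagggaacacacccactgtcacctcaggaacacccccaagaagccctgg
Isg15, chr4:156285276-156285525, minus strand: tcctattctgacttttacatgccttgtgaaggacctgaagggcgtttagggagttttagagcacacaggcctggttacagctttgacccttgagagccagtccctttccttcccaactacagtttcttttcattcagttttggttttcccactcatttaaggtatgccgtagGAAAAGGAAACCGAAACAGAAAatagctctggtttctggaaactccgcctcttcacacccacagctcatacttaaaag
Isg15 stood at 83.9, 140.4 and 3.35 CPM in the WT, 328, 364 and 369 in the MlxKO, 298, 199 and 194 in the MycKO and 242, 179 and 221 in the DKO libraries, an interaction of -3.33 ± 1.28 (adjusted p = 0.0485). It was -1.78 (adjusted p = 0.000144) without WT library 3, and was not called (-2.92, adjusted p = 0.0957) after correction for transcript GC content and length. In windows of 250 bases before to 50 after the start, 59.3% of 27 interferon-stimulated genes with a promoter in the table held the motif, against 3.76% of 10070 genes tested, 3.13% of the positive and 4.15% of the negative interaction genes. This motif was added after the data were seen.

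RNAs of the mitochondrial genome, which encodes subunits of the respiratory chain and ribosomal RNAs of the organelle, had positive interactions almost throughout. They were singled out after their chromosome's values were seen. Their summed level was 35023, 31360.4 and 32664 CPM in WT, 18546, 12896 and 14051 in MlxKO, 8788, 11639 and 12807 in MycKO and 18229, 25637 and 25845 in DKO libraries, so that each single knockout lay below WT without overlap and DKO libraries 2 and 3, but not DKO library 1, lay above all single-knockout libraries. Of 15 genes, 14 were called positive and none negative, with a median of 2.39, and 14 with a median of 2.36 without WT library 3. Mlx loss was called lower in 14 genes with Myc present (median -1.32), against 19.9% of all genes tested. With Myc lost, 12 genes were called higher (median 1.079), against 14.8%. mt-Co1, the catalytic subunit of cytochrome c oxidase, stood at 10985, 10109 and 8220.1 CPM in the WT, 6520.0, 4735 and 5101 in the MlxKO, 2672, 3886 and 4142 in the MycKO and 6071, 8237 and 8106 in the DKO libraries (interaction 1.92 ± 0.33, adjusted p = 0.000703), and mt-Cytb, cytochrome b, at 3171, 2932 and 2856 CPM in the WT, 1622, 1184 and 1267 in the MlxKO, 655, 977 and 1049 in the MycKO and 1585, 2215 and 2204 in the DKO libraries (2.32 ± 0.29, adjusted p = 7.67e-05). mt-Nd6, the complex I subunit encoded on the other strand, and mt-Rnr1, the small ribosomal RNA, had interactions of 3.05 ± 0.45 (adjusted p = 0.000241) and 2.65 ± 0.52 (adjusted p = 0.00145). The gene that missed the threshold, mt-Atp8, was below 2 CPM in every library. In primary cells 5 of 15 were called negative and none positive, against 6.07% and 7.47% of all genes tested there, with a median of -0.68.

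Among proteins of the extracellular matrix, which fibroblasts secrete, positive interactions were called more often than negative ones. Of 38 non-collagen matrix genes, 17 had a positive and 8 a negative interaction, against 23.7% and 23.8% of all genes tested, with a median of 0.64. Eln, the elastic fibre protein elastin (chromosome 5, 134731445 to 134776322), stood at 70.7, 117 and 16.1 CPM in the WT, 21.3, 26.5 and 26.6 in the MlxKO, 1.02, 0.934 and 0.844 in the MycKO and 96.3, 72.8 and 68.9 in the DKO libraries (6.4 ± 0.7, adjusted p = 3.3e-05). MycKO cells held the least and DKO cells levels in the range of WT, while WT library 3 lay below the MlxKO libraries. Fmod, fibromodulin, a proteoglycan that binds collagen, Thbs4, thrombospondin 4, and Comp, the cartilage oligomeric matrix protein, had interactions of 5.88 ± 0.56 (adjusted p = 1.21e-05), 6.1 ± 0.21 (adjusted p = 1.02e-08) and 6.45 ± 1.37 (adjusted p = 0.00246). Thbs4 stood at 130.1, 182 and 137 CPM in the WT, 15.9, 14.8 and 15.6 in the MlxKO, 0.818, 0.494 and 0.675 in the MycKO and 11.9, 11.1 and 11.3 in the DKO libraries, with no overlap between any lines. Hapln1, the link protein that anchors aggrecan to hyaluronan, stood at 71.4, 67.1 and 30.7 CPM in the WT, 41.4, 39.7 and 41 in the MlxKO, 0.716, 0.329 and 0.281 in the MycKO and 59.2, 67.8 and 69.97 in the DKO libraries, so that it was below 1 CPM in MycKO alone. Serpine2, a protease inhibitor of the matrix, was likewise lowest in MycKO, at 281, 309 and 375 CPM in the WT, 349, 251 and 263 in the MlxKO, 15.8, 20.4 and 15.3 in the MycKO and 413, 425 and 462 in the DKO libraries (interactions 5.91 for Hapln1 and 4.76 for Serpine2). Collagens were divided, 10 positive and 7 negative of 23, from Col2a1, the cartilage collagen (interaction 5.53, 39.3, 31.3 and 28.8 CPM in DKO and at most 4.16 in any other library), to Col7a1, the anchoring fibril collagen (-4.46). Of 19 cartilage and bone genes, 9 were positive and 4 negative. In primary cells 11 matrix genes were positive and 9 negative of 38.

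Of 18 genes of the contractile apparatus 12 were called negative and 0 positive, against 23.8% and 23.7% of all genes tested (median -0.88, -1.17 without WT library 3). There was 1 positive call beside 10 negative without WT library 2, and 2 beside 10 after correction for GC content and length. In primary cells 13 of 20 were positive and 0 negative, against 7.47% and 6.07%. Actg2, enteric smooth muscle actin (chromosome 6, 83489887 to 83513551), stood at 27.8, 34.7 and 80.7 CPM in the WT, 16.5, 21.5 and 16.2 in the MlxKO, 394, 344 and 372 in the MycKO and 34.4, 30.4 and 35.2 in the DKO libraries, an interaction of -2.22 ± 0.41 (adjusted p = 0.001). Myh11, the smooth muscle myosin heavy chain, stood at 1.11, 0.888 and 0.304 CPM in the WT, 0.532, 0.651 and 0.306 in the MlxKO, 46.1, 64.6 and 63.5 in the MycKO and 9.55, 8.31 and 6.07 in the DKO libraries (-2.5 ± 0.31, adjusted p = 8.27e-05), and Mylk, the kinase of its light chain, had an interaction of -2.2. In Actg2 and Myh11 the MycKO line stood above all others, and Mlx loss lowered the RNA by 3.43 and 2.72 on the log2 scale in that background. Among skeletal muscle markers Acta1 alone was tested, at 191, 226 and 231 CPM in MycKO and 90.8, 85.5 and 88.7 in DKO libraries, while the other 8 markers were at most 0.275 CPM.

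In a number of genes MycKO was the line apart. Ptprz1, a receptor phosphatase of neural and mesenchymal progenitors, stood at 0.0586, 0.166 and 12.2 CPM in the WT, 0.919, 0.701 and 1.33 in the MlxKO, 89.1, 123 and 119 in the MycKO and 0.682, 0.905 and 0.276 in the DKO libraries (-5.74 ± 0.998 (adjusted p = 0.000731)). Galnt18, a glycosyltransferase, stood at 3.75, 3.99 and 4.26 CPM in the WT, 3.24, 2.75 and 2.19 in the MlxKO, 95.4, 94 and 89.9 in the MycKO and 7.28, 5.77 and 7.62 in the DKO libraries, and Mlx loss lowered it in both backgrounds, by 0.43 with Myc and 3.58 without (-3.15 ± 0.21 (adjusted p = 5.95e-07)). MycKO was the highest in both genes, and WT library 3 held more Ptprz1 than any MlxKO or DKO library. Kdr, a receptor of vascular endothelial growth factor, stood at 2.52, 3.16 and 2.25 CPM in the WT, 4.98, 4.85 and 6.02 in the MlxKO, 13.2, 17.3 and 17.2 in the MycKO and 4.49, 3.62 and 3.64 in the DKO libraries (-2.56 ± 0.23 (adjusted p = 7.52e-06)), while the endothelial genes Emcn, Tie1 and Cldn5 were at 0. Tek, the angiopoietin receptor and the other endothelial marker tested, went the opposite way, with 4.43 ± 0.75 CPM (SD, n = 3) in DKO against a mean of at most 1.34 CPM in the other lines (interaction 1.42, adjusted p = 0.00722).

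Secreted proteins of proteolysis and complement were divided. Of 26 matrix proteases and their inhibitors 10 were positive and 8 negative. Adamts2, the protease that trims procollagen, stood at 141, 161 and 59.2 CPM in the WT, 58.2, 63.5 and 58.9 in the MlxKO, 55.1, 77.7 and 68.7 in the MycKO and 228, 211 and 192 in the DKO libraries (2.51 ± 0.4 (adjusted p = 0.000412)), and the collagenase Mmp13 had -3.005 ± 0.41 (adjusted p = 0.000156), with no more than 0.452 CPM in DKO libraries. Of 12 complement genes 4 were positive and 3 negative. Serping1, the C1 inhibitor, stood at 1.46, 2.16 and 0.548 CPM in the WT, 8.76, 3.05 and 4.95 in the MlxKO, 21.9, 27.1 and 29 in the MycKO and 1.59, 3 and 3.48 in the DKO libraries (-4.33 ± 0.47 (adjusted p = 3.05e-05)), and Cd55, which speeds the decay of complement convertases at the cell surface, stood at 50.6, 34.2 and 16.1 CPM in the WT, 20.6, 17.1 and 18.4 in the MlxKO, 6.13, 4.17 and 5.18 in the MycKO and 42, 46.2 and 46.9 in the DKO libraries (3.59 ± 0.42 (adjusted p = 5.24e-05)). Serping1 was thus highest and Cd55 lowest in MycKO cells, and DKO cells lay in or near the WT range in both. Among 19 chemokines and cytokines 1 was positive and 6 negative, among them Cxcl14, a chemokine of stroma, at -3.57 ± 0.38 (adjusted p = 2.47e-05).

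Developmental regulators and growth factor genes held many of the larger values. Of 33 Hox genes, the transcription factors of body axis position, 17 had a negative and 6 a positive interaction, against 23.8% and 23.7% of all genes tested, with a median of -1.58. Among the 15 with a mean of at least 5 CPM the sign turned, with 4 negative and 6 positive calls and a median of 0.64. Hoxc6 and Hoxc8 stood at 26.6, 22.9 and 25.3 and 16.7, 17.6 and 17.3 CPM in MycKO libraries and at most 1.12 and 0.484 CPM in any other (interactions -5.09 and -4.33), so that MycKO was the line apart. Of 25 genes of insulin-like growth factor (IGF) signalling and imprinting, 13 were negative and 6 positive. Igfbp5, an IGF-binding protein, stood at 34.1, 42.4 and 15.3 CPM in the WT, 95, 85.5 and 84.9 in the MlxKO, 274, 383 and 339.5 in the MycKO and 22.2, 16.4 and 17.3 in the DKO libraries (-5.7 ± 0.4, adjusted p = 9.11e-07), and Igfbp3 had an interaction of -4.55. Of 32 genes of Notch and Wnt signalling 15 were negative and 5 positive, and the related Wnt antagonists Sfrp2 (above) and Sfrp1 had opposite signs. Sfrp1 stood at 2.05, 3.38 and 3.23 CPM in the WT, 6.63, 4.1 and 4.34 in the MlxKO, 28.9, 36.2 and 30.2 in the MycKO and 1.36, 0.735 and 0.607 in the DKO libraries (-4.75 ± 0.31, adjusted p = 4.95e-07). Nkd2, an inhibitor of Dishevelled, had an interaction of -4.43. In the TGF-beta and BMP list, 11 were positive and 10 negative of 32. The BMP antagonist Grem1 stood at 47, 44.2 and 119 CPM in the WT, 150.4, 90.4 and 101 in the MlxKO, 335, 372 and 359 in the MycKO and 20.8, 24.9 and 22.4 in the DKO libraries (-4.73 ± 0.43, adjusted p = 7.52e-06), whereas the ligand Gdf6 stood at 35.1, 30.7 and 50.8 CPM in the WT, 28, 35.3 and 35.5 in the MlxKO, 3.68, 8.18 and 6.47 in the MycKO and 98.7, 83 and 76.5 in the DKO libraries (3.87 ± 0.34, adjusted p = 6.12e-06).

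In the Myc network 5 of 10 members were called, 2 positive and 3 negative, a share near that of all genes, and neither of the 2 tested members of the Mlx network (Mlx and Mlxip) was called. The paralogs of Myc were among those called. Mycl stood at 0.234, 0.388 and 2.5 CPM in the WT, 1.79, 2.1 and 1.17 in the MlxKO, 14.8, 15.1 and 14.1 in the MycKO and 0.569, 0.566 and 0.718 in the DKO libraries (-3.83 ± 0.44, adjusted p = 4.64e-05), and Mycn reached 2.1, 1.26 and 1.41 CPM in MycKO and at most 0.306 elsewhere (-1.65 ± 0.23, adjusted p = 0.000151). In primary cells the interaction of Mycl was positive, at 1.21. Among the repressors Mxd3, Mxi1 and Mxd4 had interactions of -1.12 ± 0.28 (adjusted p = 0.00584), 0.59 ± 0.2 (adjusted p = 0.0316) and 0.72 ± 0.27 (adjusted p = 0.0418), while the common partner Max had 0.11 ± 0.14 (adjusted p = 0.543) and did not pass. After correction for GC content and length Mxd3 (-0.479, adjusted p = 0.0628) and Mxi1 (0.256, adjusted p = 0.218) were not called, while Mxd4 was (1.06, adjusted p = 0.0035). Mga, at 0.415 and not called before the correction, turned to -0.318 (adjusted p = 0.0206). The network then had 1 positive and 3 negative calls. Scaling by library totals left 0 positive and 3 negative calls in the network. Myc itself had -1.12 ± 0.61 (adjusted p = 0.149), with 177 CPM in WT library 3, and without that library -1.79 (adjusted p = 0.000238).

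Among 12 tested target genes of Mlx and its partners, 3 were positive and 2 negative. Arrdc4, an arrestin-like protein that restrains glucose uptake (chromosome 7, 68386742 to 68398999), stood at 15.3, 12.3 and 6.51 CPM in the WT, 0.194, 0.35 and 0.051 in the MlxKO, 7.72, 5.71 and 4.78 in the MycKO and 0.739, 0.735 and 1.1 in the DKO libraries. Both losses of Mlx lowered it without overlap, by 3.3 with Myc and 1.91 without, and the interaction of 1.39 ± 0.37 (adjusted p = 0.00872) was the difference between these falls. Its promoter is shown because it holds the E-box CACGTG, given in capitals, with the same window, source and direction as for Oas3.
Arrdc4, chr7:68398987-68399236, minus strand: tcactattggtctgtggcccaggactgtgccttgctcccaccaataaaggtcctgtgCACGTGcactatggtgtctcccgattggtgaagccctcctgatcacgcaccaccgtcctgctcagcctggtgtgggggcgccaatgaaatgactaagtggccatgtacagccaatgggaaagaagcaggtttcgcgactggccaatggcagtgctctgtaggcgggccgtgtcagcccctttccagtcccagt
The levels in lines without Mlx were at most 1.1 CPM, where the added 1 CPM compresses differences, and edgeR on whole reads gave 2.96. Txnip, the related thioredoxin inhibitor, named after its values were seen, stood at 60.7, 74.3 and 33.8 CPM in the WT, 4.4, 2.55 and 4.54 in the MlxKO, 37.2, 41.4 and 38.4 in the MycKO and 0.682, 1.3 and 1.49 in the DKO libraries, and its interaction of -0.71 ± 0.38 (adjusted p = 0.143) did not pass. At the DKO levels of Txnip the added 1 CPM again compresses the fall. In primary cells the Txnip interaction was called positive, at 1.66 (adjusted p = 3.21e-07). Arrdc3, another arrestin-like protein, stood at 46.1, 45.4 and 36 CPM in the WT, 52.2, 31.5 and 35.9 in the MlxKO, 17.7, 17.7 and 19.2 in the MycKO and 53, 66.9 and 62.7 in the DKO libraries (1.8 ± 0.25, adjusted p = 0.000149), so that Mlx loss raised it in cells without Myc. Gpd1, glycerol-3-phosphate dehydrogenase, had an interaction of 1.72 ± 0.44 (adjusted p = 0.00691) at no more than 2.89 CPM. Over all genes tested with a promoter, 11.7% of 10070 held CACGTG within 250 bases before to 50 after the start, 12.2% of the positive and 11% of the negative interaction genes. The longer carbohydrate response element, CACGNG and CNCGTG with 5 bases between them, was found in 5 of the 10070 and in none of the called genes. A match is a description of letters and not a site of binding.

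Of 23 Myc target genes, 7 were negative and 3 positive, and 14 negative without WT library 3, with 4 negative without WT library 1, MlxKO library 2 or DKO library 2 or 3. Hmga1, an architectural chromatin protein (chromosome 17, 27775449 to 27782648), stood at 119, 121 and 276 CPM in the WT, 345, 501 and 449.7 in the MlxKO, 1119.6, 1173 and 1100.3 in the MycKO and 292, 233 and 244 in the DKO libraries (-3.57 ± 0.37, adjusted p = 2.28e-05), and 25% of its 50-base stretches are shared with the copy Hmga1b. Fbl, the methyltransferase of ribosomal RNA, and Tfrc, the transferrin receptor, had interactions of -1.49 and -1.25. Among 22 glycolysis genes Mlx loss was called higher in 13 with Myc present and lower in 6 with Myc lost, against 19.1% and 14.6% of all genes tested. The interaction was negative in 11 and positive in 2, against 23.8% and 23.7%, and negative in 6 and positive in 1 after correction for GC content and length. Slc16a3, the lactate exporter MCT4, stood at 6.03, 6.49 and 11.9 CPM in the WT, 11.1, 19.6 and 16.8 in the MlxKO, 34.2, 34.1 and 35.9 in the MycKO and 20.9, 16.2 and 17.8 in the DKO libraries (-1.8 ± 0.33, adjusted p = 0.00109), and Pfkp, platelet phosphofructokinase, had -1.46 ± 0.16 (adjusted p = 3.12e-05). Their primary interactions were 2.12 and 0.69, and 15 glycolysis genes were positive there with 2 negative.

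Sterol synthesis genes were divided, with 5 positive and 8 negative of 26, against 0 and 19 of 26 in primary cells. Mvd, mevalonate diphosphate decarboxylase, stood at 14.5, 16.6 and 16.7 CPM in the WT, 22, 34.6 and 36.4 in the MlxKO, 21.4, 21.9 and 20.7 in the MycKO and 10.9, 9.79 and 9.72 in the DKO libraries (-1.89 ± 0.24, adjusted p = 8.54e-05), so that no line overlapped another and DKO was the lowest. Of 16 genes of fatty acid synthesis 7 were positive and 1 negative, with Elovl6, a fatty acid elongase, at 0.99 and Me1, malic enzyme, at 0.94. In the list of the stress factor ATF4, 5 were positive and 2 negative of 15 (9 and 2 without WT library 3). Slc7a11, the cystine importer, stood at 49.1, 29.1 and 29.9 CPM in the WT, 21.6, 17.3 and 15.9 in the MlxKO, 4.14, 5.16 and 5.52 in the MycKO and 14.5, 14.1 and 13.1 in the DKO libraries (2.25 ± 0.28, adjusted p = 7.54e-05), and Aldh1l2, a mitochondrial folate enzyme, had 2.11 ± 0.26 (adjusted p = 7.65e-05). Pparg, the adipocyte nuclear receptor, stood at 26.6, 36.5 and 16.9 CPM in the WT, 4.79, 3 and 3.32 in the MlxKO, 9.05, 8.68 and 10.8 in the MycKO and 23.9, 31.4 and 34.6 in the DKO libraries (4.06 ± 0.35, adjusted p = 5.43e-06), Cebpa, a factor that acts beside it, had 2.03, and Lpl, lipoprotein lipase, -2.42. Rora, a nuclear receptor of the circadian clock, had 2.81 ± 0.23 (adjusted p = 3.48e-06). The p53 targets and CDK inhibitors were divided, 10 positive and 12 negative of 29. Btg2, an antiproliferative p53 target, had 2.62, and Cdkn1c, the imprinted CDK inhibitor p57, had -2.84.

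**Figure D3:**
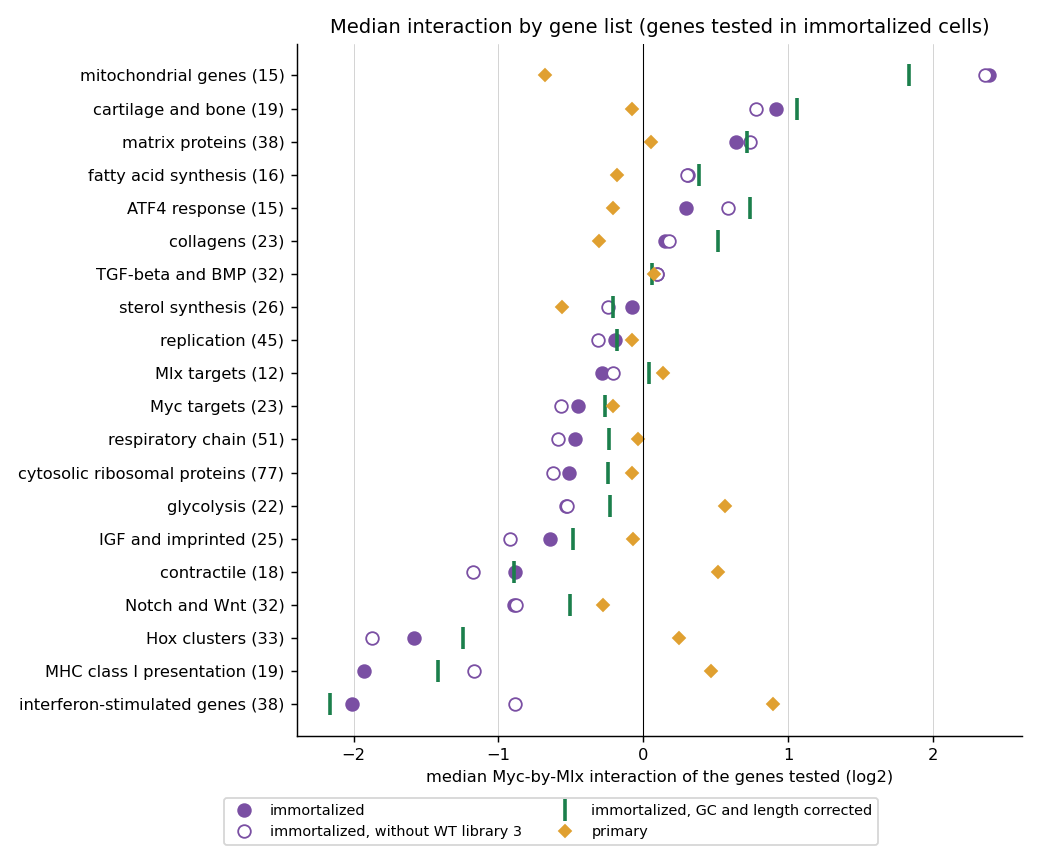
Median interaction of the genes tested in 20 groups of genes, in immortalized cells (filled circles), without WT library 3 (open circles), after correction for transcript GC content and length (green bars) and in primary cells (diamonds), with the number of genes tested in brackets. The interferon, MHC class I, contractile and glycolysis medians are negative in immortalized and positive in primary cells, and the mitochondrial median is positive in immortalized and negative in primary cells.

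For genes of proliferation the share called was 35.6% in replication, 37.5% in mitosis and 31.3% in DNA repair, beside 47.4% of all genes, a difference that was not tested. Of 45 replication genes 5 were positive and 11 negative, of 40 mitosis genes 6 and 9, and of 67 DNA repair genes 11 and 10. Mybl2, a transcription factor of the cell cycle, stood at 19.6, 19.1 and 40.2 CPM in the WT, 41.5, 51.3 and 46.5 in the MlxKO, 48.2, 53.4 and 58.1 in the MycKO and 32.1, 24.2 and 28.1 in the DKO libraries (-1.78 ± 0.33 (adjusted p = 0.00105)). Pola2, a subunit of DNA polymerase alpha, stood at 35.4, 33.1 and 39.99 CPM in the WT, 56.4, 62.5 and 56.4 in the MlxKO, 48.7, 54.5 and 55.1 in the MycKO and 46.5, 37 and 42.2 in the DKO libraries (-1.01 ± 0.16 (adjusted p = 0.000485)). In Mybl2 every MlxKO and MycKO library exceeded every WT and DKO library, and in Pola2 likewise, by smaller margins. The end-joining protein gene Xrcc5 and the base excision repair scaffold gene Xrcc1 had opposite signs, 1.42 ± 0.21 (adjusted p = 0.000278) and -1.49 ± 0.25 (adjusted p = 0.000541). Tnfrsf10b, a death receptor induced by p53, stood at 152, 122 and 85.6 CPM in the WT, 58.6, 61 and 64.6 in the MlxKO, 58.4, 60.9 and 59.4 in the MycKO and 109.6, 118 and 113 in the DKO libraries (1.83 ± 0.23 (adjusted p = 7.54e-05)).

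Of 30 lysosomal genes 5 were positive and 4 negative, with Ctsh, the aminopeptidase cathepsin H, at 9.37, 7.38 and 4.99 CPM in the WT, 6.24, 5.96 and 5.26 in the MlxKO, 1.79, 1.21 and 2.14 in the MycKO and 18.3, 16.4 and 20.2 in the DKO libraries (3.08 ± 0.29 (adjusted p = 1.01e-05)) and Npc1, the cholesterol exporter of the lysosome, at 1.22 ± 0.34 (adjusted p = 0.011). Of 17 clock genes 6 were positive and 1 negative. Nr1d2, the repressor Rev-erb beta, stood at 161, 134 and 148 CPM in the WT, 94.2, 73.1 and 80.2 in the MlxKO, 70.1, 72 and 76.9 in the MycKO and 100.5, 123 and 118 in the DKO libraries (1.46 ± 0.17 (adjusted p = 4.86e-05)), whereas Hlf, a factor of clock output, had -3.58 ± 0.59 (adjusted p = 0.000528). All 6 single-knockout libraries lay below the WT and DKO libraries in Nr1d2. The counts of the remaining lists were 2 positive and 2 negative of 14 for serine and one-carbon metabolism, 4 and 1 of 15 for the NRF2 response, 3 and 10 of 48 for ribosome biogenesis, 5 and 3 of 11 for adipocyte genes, 5 and 3 of 12 for fibroblast markers and 1 and 4 of 5 for sex-linked genes.

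The interaction followed the base composition of the transcripts. When genes were divided into 5 equal groups by GC content, in the group with the lowest 48.7% were called positive and 7.11% negative (median 0.58), and in the group with the highest 6.14% and 48.5% (median -0.6). By transcript length the medians ran from -0.34 in the shortest to 0.32 in the longest of 5 groups. The libraries of a genotype were not alike in this: the most GC-rich group lay -0.31, -0.14 and -0.38 from the mean of all libraries in WT and 0.11, -0.11 and -0.1 in DKO. When the dependence on GC content and length was removed from each library, 5418 of 12863 genes were called (42.1%), 4121 of them genes called without the removal and with the same sign. The interferon median was then -2.16, the contractile -0.89, the matrix 0.72 and the mitochondrial 1.83, while the MHC class I median moved from -1.93 to -1.42 and that of glycolysis from -0.54 to -0.23. Whether composition entered through the cells or through the libraries was not tested.

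**Figure D4:**
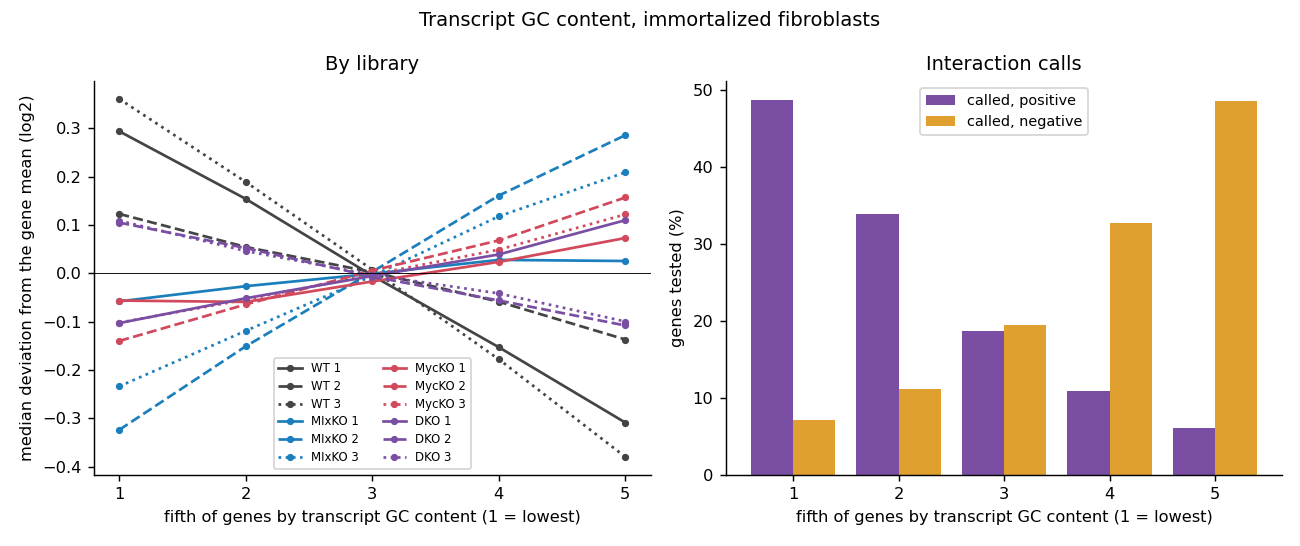
Left, the median deviation of each library from the gene mean (log2) for 5 equal groups of genes by GC content of the transcript, and right, the share of each group with a positive or a negative called interaction. Among called genes the most GC-poor group is mostly positive and the most GC-rich group mostly negative, and libraries of WT and DKO cells differ among themselves in slope.

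Nuclear genes of the ribosome and the respiratory chain were called negative more often than positive. Of 77 cytosolic ribosomal protein genes 24 were negative and 0 positive (median -0.51), and of 51 genes of the respiratory chain 18 and 1 (median -0.47), against 23.8% negative, 23.7% positive and 47.4% called of all genes tested. These medians rest in part on MycKO library 1 and were -0.21 and -0.1 without it, when 4 genes of each list were positive. After correction for GC content and length they were -0.24 and -0.24, with 2 and 3 positive. The ribosomal count was 14 without WT library 1 or DKO library 2, 15 without MlxKO library 2 or 3, and 36 without WT library 3, and the respiratory count was 11 without WT library 1, MlxKO library 2 or DKO library 2. Rpl13 stood at 289, 378 and 376 CPM in the WT, 513, 773 and 745 in the MlxKO, 783, 451 and 445 in the MycKO and 329, 269 and 313 in the DKO libraries (-1.78 ± 0.31, adjusted p = 0.00081), with 18.7% of its 50-base stretches found in other genes. Cox5b, a subunit of cytochrome c oxidase, stood at 13.6, 21.6 and 10.4 CPM in the WT, 28.8, 44.6 and 40.4 in the MlxKO, 86.9, 29 and 29.8 in the MycKO and 22.7, 20.2 and 30.7 in the DKO libraries (-2.08 ± 0.53, adjusted p = 0.00692), with MycKO library 1 far above the other MycKO libraries. The mitochondrial genes above, several of which encode subunits of the same chain, had the opposite sign.

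By chromosome the median interaction ran from -0.27 on chromosome 15 to 0.33 on chromosome 1 among autosomes, and these were -0.11 and 0.12 after the removal of GC content and length. The 6 tested genes of chromosome Y had a median of -3.79, with Ddx3y at 6.56, 4.61 and 106 CPM in the WT, 56.8, 42.9 and 43.7 in the MlxKO, 19.1, 20.8 and 19.8 in the MycKO and 1.25, 1.75 and 2.04 in the DKO libraries (-4.52 ± 1.11, adjusted p = 0.00577). Y-linked RNA thus differed between lines and between WT libraries, and the part of sex in other genes was not tested. Genes tested in both cell states numbered 12402, of which 891 were called in both. These were 15.1% of the immortalized calls, beside 13.5% of all genes tested that were called in primary cells. They were 56.8% of the primary calls, beside 47.4% of all genes tested that were called in immortalized cells. Of the 891, 412 had the same sign and 479 the opposite sign. The tables were scaled separately and the values were not tested against each other.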

How the data were processed

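RNA was measured by directional poly-A sequencing of 24 libraries, 12 of them from immortalized MEFs. The deposited tables give CPM, per the labels, made by the authors with CLC Genomics Workbench on GRCm39 (mm39). Columns sum to between 915691 and 1077213 and step in whole reads, so the deposited values were treated as a scaled signal, and every value came out within 0.05 of a whole read. The scaling itself is not given in the sources used here. Libraries are numbered 1 to 3 within a group in the order of the column numbers, which do not match the replicate numbers of the labels.

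Values were tested as log2(CPM + 1) with limma 3.58.1 in R 4.3.3 (a trend in the variance prior, 4 groups of 3 libraries, Benjamini-Hochberg adjustment over 12880 genes, threshold 0.05), for the interaction and the 4 single effects. Genes needed at least 1 CPM in at least 3 libraries. edgeR 4.0.16 and DESeq2 1.42.0 were run on recovered reads as alternatives, beside another pseudocount, other filters, scalings and variance priors, and each library left out. The method was tested on simulated data, where limma recovered 73% of 100 genes with an interaction of 1 and 100% of 100 with 2 on the log2 scale, and called 10 of 12471 unchanged genes. The simulated libraries shared a common mean per gene and a fixed dispersion, apart from the shift in DKO, and held no deviant library such as WT library 3. These rates therefore do not show how many calls in the real data are false. Splines of transcript GC content and length with 4 degrees of freedom were removed from each library as a correction added after the data were seen. Replicate libraries of a genotype differed beyond sampling noise and were counted separately.

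Named genes were Myc and Mlx, the 8 largest called interactions of each sign (a mean of at least 5 CPM in a group), the leading genes of each class of response and up to 3 called members of each list. The members, lists and rules were chosen with earlier results of these data known, and genes named outside them are marked. Some genes that the rule names are not reported here. Places are from GENCODE vM39 on GRCm39. Promoters are from RefSeq (10070 of 12880 genes matched by symbol). Each motif was sought on both strands, a promoter counting once, and overlaps with other motifs were not removed. Figures were drawn with matplotlib 3.10.9.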

Additional observations from a re-analysis of the deposited data

Results flagged for a closer look

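By limma's test of the interaction, 6108 genes answered to the loss of Mlx differently when Myc was also lost, and in 1425 of these both effects were called with opposite signs. Groups held 3 libraries, too few for an outlier test within a group. Among the leading genes of both signs the difference between the effects was 8.14 on the log2 scale for Cdsn, 7.65 for Sfrp2, 7.06 for Malrd1, 6.99 for Il1rn, 6.91 for Mest, 6.59 for Ogn and 6.46 for Commd1b. Commd1b varied more within lines than the others, from 0 to 10.4 CPM in MlxKO and from 11.3 to 38.9 CPM in DKO libraries. The difference was -10.27 for Crabp1, -7.997 for Thy1, -6.79 for Stmn2 and -6.74 for Galnt17. WT library 3 lay with or near the MlxKO libraries in Crabp1, Thy1, Galnt17 and Mest, and nearer to the other WT libraries in Stmn2 and Il1rn.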

How the results depend on the processing

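The interaction was called in 6108 genes, between 4956 and 7299 when a library was left out, in 6009 by edgeR, 6285 by DESeq2 and 5418 once GC content and length were corrected for. With an absolute interaction of at least 1 also required, 3186 genes were called, 1452 positive and 1734 negative. Scaling by library totals gave 2325 positive and 3920 negative calls. With a library left out, between 840 and 2600 genes had opposite and between 35 and 137 the same sign of both called Mlx effects (the highest without WT library 3 in both), and between 1432 and 2764 were called only with Myc present. Leaving out a library moved the count for Mlx loss with Myc present between 2884 and 6033, for Mlx loss with Myc lost between 2578 and 5266, for Myc loss with Mlx present between 4927 and 6951, and for Myc loss with Mlx lost between 2352 and 5565. The primary count ran from 1393 to 2180, and was 1775 by edgeR. Of 2294 values of 105 named genes under an alternative, 2229 kept sign and side of the threshold, 58 lost the call and 4 gained it, and none of the 100 called genes turned sign. Of those not called, Max turned to -0.061 and Mlx to -0.0155 under scaling by totals, and mt-Atp8 to -0.234 under the GC correction. Mga, which was not among the 105 genes, turned to -0.318 under the GC correction and was then called. The median of the Hox genes turned to 0.6387 with a mean of at least 5 CPM required. The median of the Mlx targets turned to 0.0399 under the GC correction, that of the TGF-beta and BMP genes to -0.0859 and that of the collagens to -0.0293 under scaling by totals. With each library left out these medians ran from -0.0201 to 0.137 and from -0.0202 to 0.294, the lowest without MycKO library 1 in both. The cause was not tested. No paired analysis was possible because the column numbers of the libraries do not match the replicate numbers in the labels. Depth limits genes near 1 CPM, where 3 reads already amount to as much as 0.183 CPM. Each knockout was a single line, the lines behind the WT libraries are unknown, and no alternative bears on that.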
